A study of Mus musculus with 2 samples.

Results

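The receptors of the bone morphogenetic protein (BMP) and transforming growth factor beta (TGF-beta) family were measured as RNA in neural crest cells sorted from the hearts of mouse embryos with and without Adam19, a metalloprotease anchored in the cell membrane. The members were 10 receptor genes of 19938 measured genes. They were chosen by symbol, as transcript clusters annotated to exactly 1 of the genes Acvr1, Acvrl1, Acvr1b, Bmpr1a, Bmpr1b, Tgfbr1, Tgfbr2, Bmpr2, Acvr2a and Acvr2b. All 10 were found, each with 1 cluster, and none shared its cluster with another gene. They fall into 6 type I and 4 type II receptors.

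The first sample was Adam19+/+ and the second Adam19-/-, and both carried Wnt1-Cre with 1 copy of the reporter (R26tdTomato/+) on a C57BL/6 background. Both came from hearts at E14.5, with 1 array (Affymetrix Mouse Gene 1.0 ST) per genotype. Wnt1-Cre is expressed in the neural crest and turns on tdTomato in its descendants, and red cells were sorted from digested hearts. The sort therefore collected all marked descendants together, and the labels name no conditional Adam19 allele, so the genotype applies to the embryo and not only to the sorted cells. The sources used here do not give how many embryos went into each sample. With 1 sample per group no difference below has a replicate check, and no p-value, standard error or standard deviation could be given.

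Ligands of this family are secreted dimers that bring together type I and type II receptors, both of which are serine/threonine kinases. The type II kinase phosphorylates the type I receptor, which then phosphorylates SMAD proteins that enter the nucleus. Type I receptors set the branch: Bmpr1a, Bmpr1b, Acvr1 and Acvrl1 act on the BMP SMADs (Smad1, Smad5 and Smad9), whereas Tgfbr1 and Acvr1b act on Smad2 and Smad3. In the heart, both branches are known for their roles in the neural crest cells that divide the outflow tract and build the walls of the great arteries.

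The labels were first checked on Adam19 and on markers. Adam19 had a log2 signal of 11.62 on the Adam19+/+ array against 9.77 on the other, or -1.85, which is the direction the labels call for. The sources used here do not say which exons are deleted or whether the probes cover them. The sorted cells carried markers of several neural crest fates. Among them were smooth muscle and mesenchyme (Acta2 at 13.74 and 13.62, Postn at 13.41 and 13.32), glia (Fabp7 at 13.45 and 13.30, Sox10 at 10.45 and 10.50) and autonomic neurons (Stmn2 at 12.64 and 12.62, Dbh at 10.71 and 11.14). Cardiomyocyte markers were also measured, and their signals varied widely. The 14 markers ran from Actc1 at 11.70 and 11.79 down to Ttn at 6.96 and 7.31. The samples also differed in 3 Y-linked genes, Uty, Kdm5d and Eif2s3y, with differences from -1.62 to -1.17, while Xist was at 11.25 and 11.14. These 3 and Adam19 were the 4 genes at least 2-fold lower on the Adam19-/- array, and no gene was 2-fold higher. The sources used here do not give the sex of the embryos. A difference in sex between the samples cannot be told apart from genotype in any difference below.

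Type I receptors spanned a wide range of signal in these cells, led by the BMP receptor Bmpr1a. Signals are given as log2 values, Adam19+/+ first, with the percentile among all genes of the same array. Bmpr1a, a main receptor for BMP2 and BMP4, was at 11.93 and 11.87, at percentiles 97.0 and 96.7. Tgfbr1, the type I receptor for TGF-beta, followed at 11.02 and 11.00 (percentiles 91.5 and 91.0). Acvr1, a BMP receptor whose activating mutations cause ectopic bone formation in humans, was at 9.96 and 9.94 (percentiles 78.3 and 77.3). These leading receptors thus cover both SMAD branches. Acvr1b, the type I receptor for activins and Nodal, was at 9.34 and 9.43 (percentiles 68.8 and 69.3). Acvrl1, known as the endothelial receptor for BMP9 and BMP10, was at 8.98 and 8.90 (percentiles 63.7 and 61.5). Bmpr1b, a receptor for BMPs and for GDF5 in early cartilage, had the lowest signal at 7.72 and 8.02 (percentiles 47.1 and 49.8), which is near the middle of all genes.

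Among type II receptors, Bmpr2 had the highest signal and Acvr2b the lowest. Bmpr2, the type II receptor dedicated to BMPs, was at 11.63 and 11.64 (percentiles 95.6 on both arrays). Tgfbr2, the type II receptor for TGF-beta, was at 10.46 and 10.47 (percentiles 85.3 and 84.9). The activin type II receptors, which also take BMPs, came below. Acvr2a was at 9.45 and 9.61 (percentiles 70.3 and 72.1) and Acvr2b at 8.11 and 8.19 (percentiles 51.7 and 52.0). The order of all 10 signals was the same on both arrays, from Bmpr1a, Bmpr2, Tgfbr1 and Tgfbr2 down through Acvr1, Acvr2a, Acvr1b and Acvrl1 to Acvr2b and Bmpr1b.

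**Figure D1:**
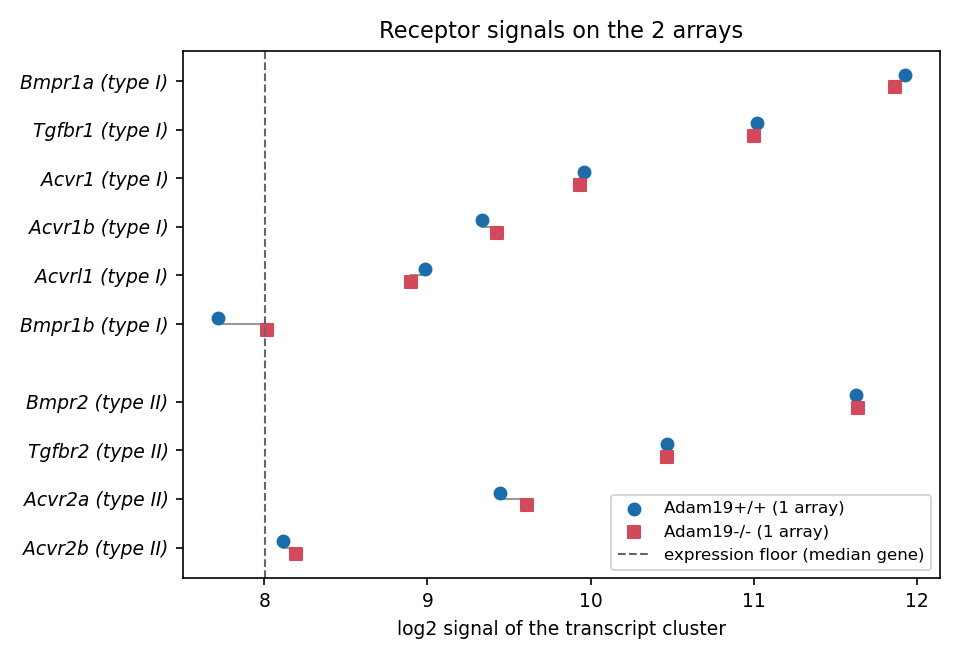
Log2 signal (horizontal axis) of the 6 type I and 4 type II receptor genes, with circles for the Adam19+/+ array and squares for the Adam19-/- array (1 array each, no error bars). The broken line is the expression floor of 8.01, the median of all genes' mean signal, and Bmpr1b is the only receptor with a point on its left.

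This is an order of array signals and not of transcript numbers, because probes of different genes bind with different strength and the values are not scaled per transcript length. Some idea of that error came from genes with more than 1 cluster. Over 583 such genes above the floor, the brightest and the next cluster of the same gene lay a median of 0.36 apart in log2 signal, with a 95th percentile of 2.24. Several neighbours in the order were no farther apart than the median. In Adam19+/+ cells, Bmpr1a and Bmpr2 were 0.30 apart, Acvr2a and Acvr1b 0.11, and Acvr1b and Acvrl1 0.35. No neighbouring pair exceeded the 95th percentile. Of the 45 pairs of receptors, 14 did so in Adam19+/+ and 12 in Adam19-/- cells. Among type I receptors alone this held for 5 and 4 of 15 pairs, and the widest gap was that between Bmpr1a and Bmpr1b, at 4.21 and 3.85. Among type II receptors it held for 2 of 6 pairs on each array, and the widest gap, between Bmpr2 and Acvr2b, was 3.51 and 3.45.

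Bmpr1b also differed from most other receptors in its upstream sequence. Upstream windows of 250 bases were available for 9 of the 10 genes, all but Acvrl1. They came from a RefSeq promoter table (build GRCm38.p6), which gives 3 start sites for Bmpr1b and 2 for Tgfbr1. Windows are shown for the receptor with the highest signal of each type (Bmpr1a, Bmpr2), for Acvr1, and for the first listed start of Bmpr1b, the receptor with the lowest signal. Each runs 5′ to 3′ on the gene's strand and ends just before the annotated start. Capitals mark the GC box GGGCGG, a site for SP-family factors, searched on both strands with overlapping matches allowed.
Bmpr1a promoter, chr14:34502547-34502796, minus strand: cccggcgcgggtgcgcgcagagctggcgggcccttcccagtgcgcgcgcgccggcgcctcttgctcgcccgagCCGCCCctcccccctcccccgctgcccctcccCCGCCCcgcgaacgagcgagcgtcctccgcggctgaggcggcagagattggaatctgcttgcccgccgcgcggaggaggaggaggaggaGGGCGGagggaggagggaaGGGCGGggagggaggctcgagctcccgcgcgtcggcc
Bmpr2 promoter, chr1:59764029-59764278, plus strand: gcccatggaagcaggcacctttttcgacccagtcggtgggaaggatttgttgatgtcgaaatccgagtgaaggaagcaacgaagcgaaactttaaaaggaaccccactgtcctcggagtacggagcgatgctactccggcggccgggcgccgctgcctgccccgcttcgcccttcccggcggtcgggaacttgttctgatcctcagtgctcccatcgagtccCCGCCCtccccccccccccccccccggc
Acvr1 promoter, chr2:58566829-58567078, minus strand: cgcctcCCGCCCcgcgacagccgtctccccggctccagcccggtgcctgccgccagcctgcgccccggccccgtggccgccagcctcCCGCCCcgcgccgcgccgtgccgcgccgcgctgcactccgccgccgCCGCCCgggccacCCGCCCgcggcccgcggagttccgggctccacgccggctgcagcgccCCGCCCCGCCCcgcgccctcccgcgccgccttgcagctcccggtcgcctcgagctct
Bmpr1b promoter, chr3:141982265-141982514, minus strand: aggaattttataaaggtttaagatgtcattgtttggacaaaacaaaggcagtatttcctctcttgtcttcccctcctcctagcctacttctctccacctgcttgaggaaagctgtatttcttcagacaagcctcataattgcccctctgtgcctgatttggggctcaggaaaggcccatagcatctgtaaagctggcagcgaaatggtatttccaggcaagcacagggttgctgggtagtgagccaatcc
The Bmpr1a window held 36 CpG dinucleotides and 4 GC boxes, and 78.8% of its bases were G or C. The Acvr1 window held 46 CpG and 6 GC boxes at 85.6% G or C, and the Bmpr2 window 22 CpG and 1 GC box at 64% G or C. The 3 Bmpr1b windows held 1, 5 and 5 CpG and no GC box, at 46.8% to 56.4% G or C. Acvr2b, next to Bmpr1b at the low end of the signals, held 24 CpG and 3 GC boxes, more than Bmpr2. Acvr2a, in the middle of the order, held the most CpG, 49. Of the 9 receptors, 7 had a window with at least 20 CpG, and 7 had a GC box. Among 8210 genes of that table above the expression floor, 43.4% had such a CpG count and 67.4% a GC box. Tgfbr2 was the other receptor without either, with 12 CpG, and its signal was the fourth highest. The order of CpG counts was thus not the order of signals among the 9 receptors with a window. A match is a run of letters and not a measured binding site.

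The receptors also share position in the genome in places. Acvrl1 and Acvr1b are direct neighbours on chromosome 15, with 0 genes between them in the RefSeq annotation, and their signals were 0.35 apart in Adam19+/+ cells. Acvr1 on chromosome 2 has Acvr1c, another type I receptor of the activin branch, as its nearest protein-coding neighbour on 1 side, with 0 protein-coding genes between them. Acvr1c had a signal of 5.77 and 5.60 (percentiles 21.8 and 19.0), far under Acvr1. None of the receptors lies on the chromosome of Adam19: the count there was 0 of 10.

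Receptor signals differed little between Adam19-/- and Adam19+/+ cells. No receptor reached 1.5-fold in either direction, and 1 of 10, Bmpr1b, was at least 1.2-fold higher. Among 10122 genes with at least 1 array above the floor, 4.06% were at least 1.2-fold higher and 1.13% at least 1.2-fold lower. At 1.5-fold these shares were 0.148% and 0.0889%, and at 2-fold 0% and 0.0395%. The median difference over the 10 receptors was 0.01 on the log2 scale, beside 0.04 over the genes above the floor. By sign, 6 receptors were higher and 4 lower, where 65.2% of genes above the floor were higher and 33.7% lower. A count of 1 in 10 at 1.2-fold is too small to be set apart from these shares.

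Bmpr1b had the largest difference of the family, 0.30 or 1.23-fold higher in Adam19-/- cells. It ranked 250th by increase among the genes above the floor. Its 2 signals lie on either side of that floor, and it passed by 0.01 on the Adam19-/- array alone. Dim genes scatter more on these arrays. Among 2310 genes within 0.5 of its mean signal, the central 95% of differences ran from -0.24 to 0.38, and Bmpr1b lay above 93.9% of them. The difference was between 0.27 and 0.30 when the arrays were rescaled or 32 was added to the linear signal, but after each rescaling both of its signals lay under the floor, and no receptor was then counted at 1.2-fold.

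The other type I receptors of the BMP branch were slightly lower. Acvrl1 differed by -0.09, Bmpr1a by -0.06 and Acvr1 by -0.02. On the activin and TGF-beta branch, Acvr1b was higher by 0.09, and Tgfbr1 differed by -0.02. The median over the 6 type I receptors was -0.02. For comparison, 2 clusters of the same gene gave differences a median of 0.05 apart, with a 95th percentile of 0.24. Only the difference of Bmpr1b was larger than the latter. That spread comes from clusters above the floor on the same 2 samples, so it holds no variation between samples. Among genes of like signal the central 95% reached 0.38, and Bmpr1b lay inside it.

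All 4 type II receptors had values above 0, some barely so, and Tgfbr2 turned lower after each rescaling of the arrays and Bmpr2 after median centring. Acvr2a was higher by 0.16 or 1.12-fold, and Acvr2b by 0.08. Bmpr2 differed by 0.01. Tgfbr2 differed by 0.00067. The median over type II receptors was 0.05, close to the 0.04 of genes above the floor.

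**Figure D2:**
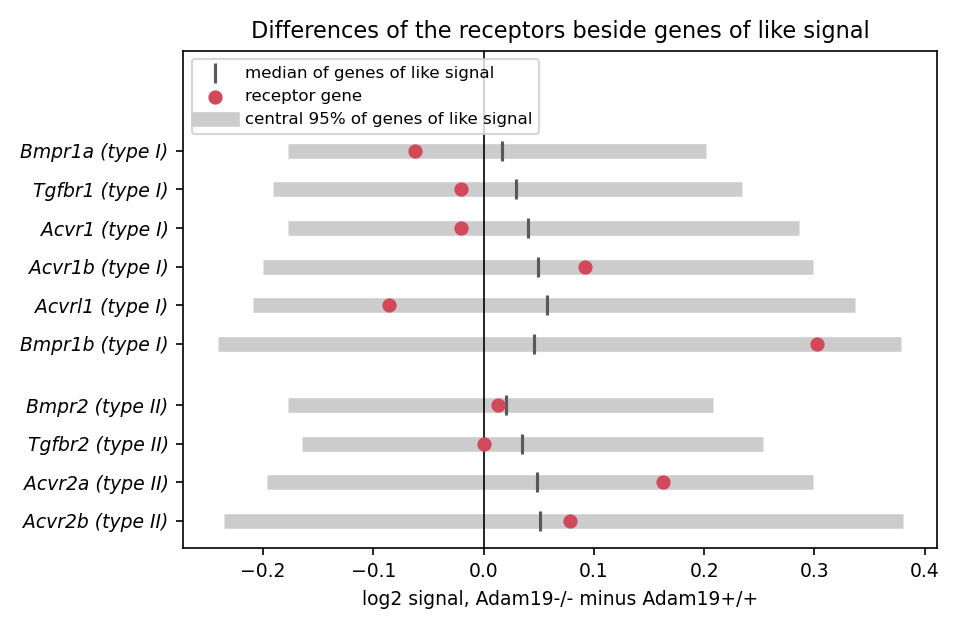
Difference in log2 signal, Adam19-/- minus Adam19+/+ (horizontal axis), of each receptor gene (points), beside the median (ticks) and the central 95% (bars) of the differences of genes within 0.5 of its mean signal. All 10 points lie inside their bars, from -0.09 for Acvrl1 to 0.30 for Bmpr1b.

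Set beside genes of like signal, 0 of 10 receptors lay outside the central 95% of differences. Acvrl1 was the lowest placed, above 11.4% of 2868 genes of like signal, whose central range ran from -0.21 to 0.34. Bmpr1a lay above 15.9% of 856 genes (central range -0.18 to 0.20), and Acvr1 above 25.5% of 2969 genes (-0.18 to 0.29). Tgfbr2 lay above 34.9% of its 2522 genes, and Bmpr2 above 46.1% of its 1097. Acvr2a lay above 85.4% of 3023 genes (-0.20 to 0.30). With 1 array per genotype these positions describe the 2 samples only.

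**Figure D3:**
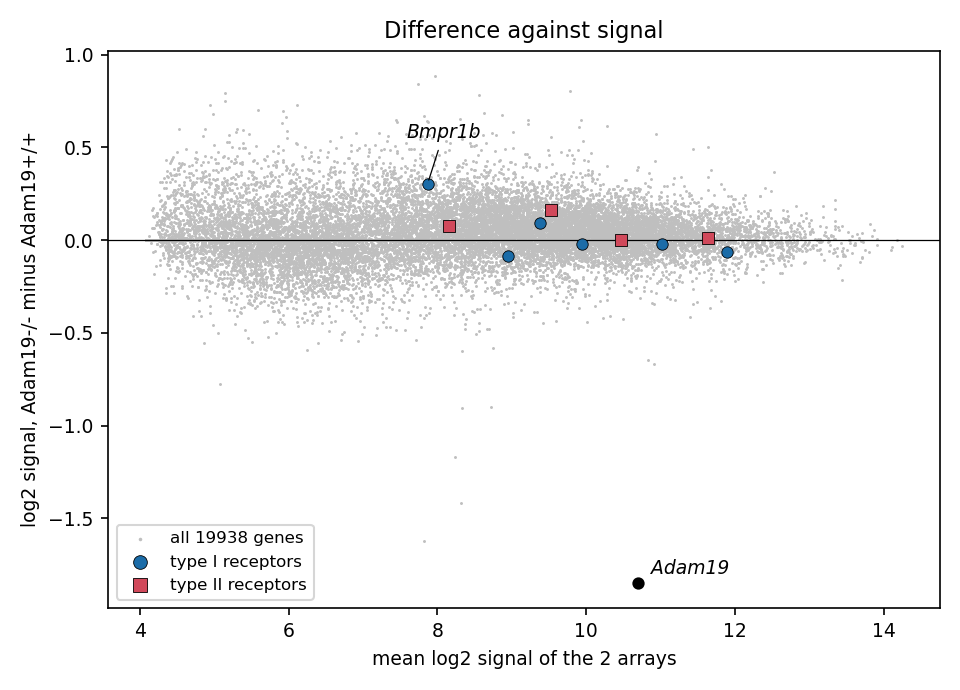
Difference in log2 signal, Adam19-/- minus Adam19+/+ (vertical axis), against the mean log2 signal of both arrays (horizontal axis) for all 19938 genes (grey points), type I receptors (circles) and type II receptors (squares). The receptors lie within the cloud of other genes, Bmpr1b toward its upper edge at 0.30, while Adam19 stands apart at -1.85.

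The sort for tdTomato should leave out most endothelial, blood and heart muscle cells, which do not descend from the neural crest, but their transcripts were measured too. In bulk samples a change in the number of cells of a type and a change in RNA per cell cannot be told apart. Endothelial markers are given beside Acvrl1, the receptor known from endothelium. Of 12 such markers, 6 were higher, 4 lower and 2 equal, beside 51.7% of all measured genes higher and 34.1% lower. This count cannot be set apart from those shares. The summed linear signal of the 12 markers was 5573 in Adam19+/+ and 5678 in Adam19-/- cells. Pecam1 was at 7.06 and 7.34 and Cdh5 at 7.66 and 7.92, both under the floor on both arrays, and Tie1 and Cldn5 had the same value on both, 6.73 and 6.87. Nfatc1, an endocardial factor, had the largest difference of the list, 0.49, and Npr3 the highest signal, 11.28 and 11.16. Npr3 differed by -0.12 and, as the brightest gene, weighs most in the sum. The median difference over the 12 markers was 0.06. The part of endothelial RNA in the Acvrl1 signal was not tested.

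Most markers of cartilage, leukocytes and cardiomyocytes were higher on the Adam19-/- array, as were most measured genes. These counts include dim genes and are to be read beside all measured genes, of which 51.7% were higher and 34.1% lower. Of genes above the floor, 65.2% were higher and 33.7% lower. Above the floor, 9 cartilage genes split into 8 higher and 1 lower, and 11 cardiomyocyte markers into 8 higher and 3 lower. Counts this small cannot be set apart from the shares above the floor. Among 10 cartilage genes there were 8 higher, 1 lower and 1 equal. Their median was 0.20, with a summed linear signal of 7056 and 8310. Hapln1 was higher by 0.58 and Sox9 by 0.57, whereas Acan differed by -0.29. Of 14 leukocyte markers, 13 were higher and 1 equal, with a median of 0.35 and a summed linear signal of 2406 and 3193. Only 4 of them lay above the floor, and these had a median of 0.61. Laptm5, a lysosomal gene of blood cells, was at 8.53 and 9.21, higher by 0.68 or 1.60-fold, and the complement gene C1qb was at 7.98 and 8.63, higher by 0.65 or 1.57-fold. Ptprc, the pan-leukocyte surface marker, was under the floor at 6.05 and 6.26. Of 14 cardiomyocyte markers, 11 were higher and 3 lower (median 0.16), with sums of 10463 and 11193, and Myl7 was higher by 0.78 and Pln by 0.54. All 6 measured erythroid markers were higher as well, with sums of 2514 and 3073, and the brightest, the globin gene Hbb-y, was at 10.71 and 11.00. Of 9 epicardial markers, 4 were higher, 3 lower and 2 equal, and the median was 0; Krt18 differed by -0.23 and Tbx18 by 0.21. Among autonomic neuron markers 4 of 6 were higher with a median of 0.14, and among glial markers 1 of 5 with a median of -0.11. Mesenchyme and smooth muscle markers were split, 6 higher and 6 lower of 12. The part of any of these in the Bmpr1b difference was not tested.

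Co-receptors and decoys, which present ligand to the receptors or hold it away, held no gene at 1.2-fold. The 9 measured genes comprised 6 higher, 2 lower and 1 equal, and their median was 0.07. Of all measured genes 51.7% were higher, and of those above the floor 65.2%, so nothing sets the list apart by this count. Endoglin (Eng), a co-receptor that works with Acvrl1 and Tgfbr2, was at 10.73 and 10.90, higher by 0.18. Tgfbr3, or betaglycan, which presents TGF-beta to Tgfbr2, was at 10.11 and 10.05, a difference of -0.06. The repulsive guidance molecules Rgma and Rgmb, co-receptors for BMPs, were higher by 0.17 and 0.11, and their receptor neogenin (Neo1), the brightest of the list at 11.69 and 11.73, by 0.04. Bambi, a receptor-like decoy without a kinase domain, was at 10.86 and 10.99, higher by 0.14. Hjv at 6.86 and 6.71, Cfc1 at 6.15 and 6.22, and Tdgf1 at 5.21 on both arrays lay under the floor. So did Amhr2, the receptor for anti-Müllerian hormone, at 6.23 and 6.05.

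Behind the receptors, the SMADs had a median difference of 0.11. All 8 SMAD genes were above the floor, 7 of them higher and 1, Smad7, lower at -0.03. Of genes above the floor 65.2% were higher and 33.7% lower, and 8 genes are too few to be set apart from these shares. Smad9, a SMAD of the BMP branch, was at 8.30 and 8.68, higher by 0.38, and the inhibitory Smad6, itself a known BMP target, was at 9.88 and 10.15, higher by 0.28. These were the 2 of 8 that reached 1.2-fold, beside 4.06% of genes above the floor. The third largest difference was that of Smad3, at 0.13. Whether SMADs and receptors differ from each other was not tested, as 1 array per genotype allows no test.

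Regulators that act on the receptors or on SMADs were nearly level. Of 16 such genes, which include ubiquitin ligases, phosphatase subunits and endocytic adaptors, 10 lay above 0 and 6 below, at a median of 0.03. All 16 were above the floor, where 65.2% of genes were higher and 33.7% lower. Ppp1r15a, a stress-induced phosphatase subunit also named Gadd34, was the exception at -0.37, from 9.92 to 9.55. Zfyve16, an endosomal protein that binds SMADs, was higher by 0.16 and the phosphatase gene Ctdsp1 by 0.13. Fkbp1a, which holds type I receptors inactive, differed by -0.10.

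Ligands and antagonists held larger single differences than the receptors. Dim genes are included in these lists, so they are set beside all 19938 measured genes, of which 51.7% were higher and 34.1% lower, 5.07% at least 1.2-fold higher and 2.02% at least 1.2-fold lower. The 12 BMP and GDF ligands comprised 8 higher, 1 lower and 3 equal genes. Their median was 0.04, and 4 were at least 1.2-fold higher. Gdf5, a ligand of Bmpr1b, was higher by 0.51, from 7.18 to 7.68, under the floor on both arrays. Bmp2 and Bmp6 were higher by 0.34 and 0.32. The 8 TGF-beta and activin ligands split into 5 higher and 3 lower (median 0.05). Mstn, or myostatin, which signals through Acvr2b, was higher by 0.57, from 8.50 to 9.07, Tgfb1 was higher by 0.21, and Nodal, under the floor, differed by -0.18. The 11 secreted antagonists split into 6 higher and 5 lower (median 0.06). Bmper, Grem1 and Nog were higher by 0.38, 0.37 and 0.36, and Nog was under the floor on both arrays.

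The response genes of both branches differed in both directions, and the lists were not tested against each other. The 13 BMP response genes comprised 9 higher, 3 lower and 1 equal. Their median was 0.24, and 5 were at least 1.2-fold higher, beside 51.7% of all measured genes higher and 5.07% at least 1.2-fold higher. Of the 13, 11 lay above the floor, 8 higher and 3 lower, where 65.2% of genes above the floor were higher. By direction, this count is too small to be set apart from that share. The 3 largest differences were those of Hand1, higher by 0.63, Sox9 by 0.57 and Gata4 by 0.36. Of the Id genes in the list, Id1 was higher by 0.08 and Id3 by 0.04, whereas Id2 differed by -0.07 and Id4 by -0.08. This list was written with earlier results for several of its genes known, so its direction is not independent evidence. Sox9 is also a cartilage marker, and Gata4 is expressed in other heart cells. Among 8 measured TGF-beta response genes, 5 were lower and 3 higher, and the median was -0.07. Tgfbi was higher by 0.37, Ltbp2 differed by -0.34 and Tagln, a smooth muscle gene, by -0.15.

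**Figure D4:**
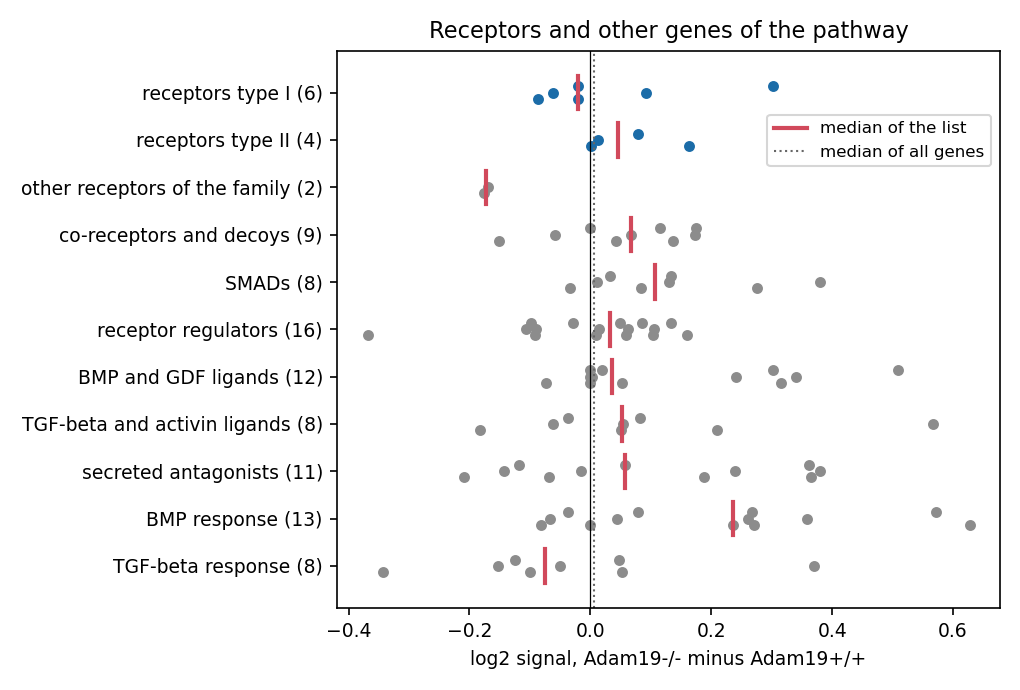
Difference in log2 signal, Adam19-/- minus Adam19+/+ (horizontal axis), of every measured gene (points) in each pathway list, with the number of genes in brackets, the median of the list (thick line) and the median of all genes (dotted line). The receptors of both types lie near 0 apart from Bmpr1b at 0.30 and Acvr2a at 0.16. The BMP response list has the highest median of the 11 pathway lists plotted, at 0.24. That list was written with earlier results for several of its genes known, so its median is not independent evidence.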

How the data were processed

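RNA of sorted cells was hybridised to 1 array per genotype. The authors deposited log2 signals per transcript cluster (28853 clusters, 2 columns); the sources used here do not give their background correction, normalisation or probe summary. Nor is the base of the logarithm written. As log2, the highest value stands for a linear signal of 23484, within the range of a 16-bit scanner. Reported values are as deposited, without further normalisation. Gene names came from the platform's 2016 annotation, updated by Entrez identifier with a RefSeq gene table (GRCm38.p6). Of these, 21789 had 1 symbol (21698 matched the table), 1621 several and 5443 none, and only those with 1 symbol were used. The brightest cluster stood for a gene. The expression floor, 8.01, is the median of the genes' mean signal and no detection limit, and 10122 genes had an array above it. Of all clusters, 15.5% had exactly equal values on both arrays.

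Differences are Adam19-/- minus Adam19+/+. Counts used 2-fold, 1.5-fold and 1.2-fold. The members, the 21 pathway and marker lists and the thresholds were chosen with earlier results of these data known. Named were Adam19, all members, all other receptors and co-receptors, the 3 largest differences of each pathway list, and from each marker list some of the 2 largest differences and 2 highest signals. Other genes (Ptprc, Cdh5, Tie1, Cldn5, Acan, Sox10, Postn, Fkbp1a, Kdm5d) were named after their values were seen. So were Id1, Id2, Id3, Id4, Smad7 and Ttn. A few listed genes are not analysed here. The alternatives were quantile normalisation, median and lowess centring, 32 added to the linear signal, the mean of a gene's clusters, and floors at none or the 75th percentile. The steps were tested on simulated data. Software was matplotlib 3.10.9, statsmodels 0.14.6, pandas 2.3.3, numpy 2.4.6 and Python 3.11.15. The number of arrays limits the precision.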

Additional observations from a re-analysis of the deposited data

How the results depend on the processing

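The order of the receptor signals was the same under quantile normalisation and with the mean of a gene's clusters, but neither setting could change it. Quantile normalisation keeps the order of genes within an array, and each receptor has 1 cluster. Of 50 receptor differences recomputed under 5 settings, 4 took the other sign, for Tgfbr2 (to -0.03) and Bmpr2 (to -0.02). None moved by more than 0.05. All 4 sign changes came under quantile normalisation, median centring or lowess centring. The remaining settings could not change a sign. The mean of a gene's clusters leaves a receptor with 1 cluster as it was. A constant added to both linear signals keeps their order. The median over receptors lay between -0.03 and 0.01. The number of receptors at least 1.2-fold higher was 0 in place of 1 under quantile normalisation, median centring, lowess centring and the floor at the 75th percentile, where Bmpr1b fell under the floor by construction; its difference stayed at 0.27 to 0.28 after rescaling. With the higher floor 5 receptors were left. Of all genes, 411 were at least 1.2-fold higher and 114 lower; these counts were 271 and 160 under quantile normalisation, 272 and 160 under median centring, 257 and 177 under lowess centring, 1010 and 403 with no floor, and 118 and 46 with the higher floor, where 1 gene in place of 4 was 2-fold different, with fewer genes tested. The share of genes above 0, 65.2%, was 55.5% after quantile normalisation, 53.5% after median centring and 53.7% after lowess centring. Centring lowered the median of genes above the floor from 0.04 to 0.01. No paired analysis was possible because each group has 1 sample. How far signal exceeds background cannot be read from these values, which limits Bmpr1b and Acvr2b most.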
